A study of Homo sapiens with 12 samples.

Results

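The matrix metalloproteinases and their tissue inhibitors were examined in MDA-MB-231 cancer cells, an established human breast carcinoma line, across 6 culture conditions. The set was defined by gene symbol alone and holds 9 genes, the metalloproteinases MMP1, MMP2, MMP3, MMP9, MMP13 and MMP14 and the inhibitors TIMP1, TIMP2 and TIMP3, out of 31334 gene symbols on the array. All probes of these symbols were taken, which gave 11 of the 47231 probes, 3 of them for TIMP2 and 1 for each other gene. The study asked how cell density, the amount and kind of serum and the medium change gene expression. Cells were harvested in MEM with 10% FBS at 50% confluence, in MEM with 0.1% FBS, in MEM with 10% horse serum (HS), in DMEM with 10% FBS and in RPMI-1640 with 10% FBS, the last 4 at 90% confluence, and each was set against MEM with 10% FBS at 90% confluence, called MEM at 90% confluence here. All media carried added L-glutamine, pyruvate, non-essential amino acids, vitamins and antibiotics per the methods. Each condition had 2 arrays, and no label says whether they came from separate cultures, so the p-values measure the spread between these arrays, which may be technical.

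Matrix metalloproteinases are zinc-dependent proteases, secreted or tethered to the cell surface as inactive precursors, that cut collagens and other components of the extracellular matrix. TIMPs bind the active site of these enzymes and block it, and TIMP2 also takes part in the activation of the MMP2 precursor at the cell surface by MMP14. In breast carcinoma the family is known for its part in invasion, and much of it is made by stromal cells rather than by the tumor cells. In cultured cells many of its secreted members are induced through the transcription factor AP-1.

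Signals are given on the log2 scale as deposited, after quantile normalization, so that a difference of 1 is a 2-fold change. Levels are not compared between genes, since probes differ in brightness. Background on each array was set from 463 olfactory receptor probes, whose genes are silent in most tissues, as their 95th percentile, and lay between 6.90 and 6.99, with 16685 to 20065 probes above it. The tests came from limma, fitted once over the 12 arrays, with Benjamini-Hochberg adjustment over all probes, and "called" means an adjusted p below 0.05. The 2 arrays of MEM at 90% confluence stood apart from the other 10. Across probes, which are not independent replicates, they correlated with those at 0.914 to 0.940, while arrays of different conditions among the other 5 correlated at 0.964 to 0.991 and arrays of 1 condition at 0.987 to 0.996. All 5 comparisons with MEM at 90% confluence share these 2 arrays, so the other conditions were also compared with MEM at 50% confluence, and DMEM with RPMI-1640, which leaves these arrays out of the difference. Apart from DMEM against RPMI-1640, those comparisons differ in density as well. Of 10 markers of the mesenchymal breast line, all but LOX were above background on at least 1 array of every condition. Of 12 melanocyte and neural crest markers, which this line is not defined by, 7 or 8 were above background on both arrays of each condition. Their summed linear signal was 4042 to 4329 at 50% confluence, 11563 to 14410 in 0.1% FBS, 3985 to 4223 in HS, 6880 to 7605 in DMEM, 6422 to 6590 in RPMI-1640 and 2355 to 2536 in MEM at 90% confluence. In these markers the arrays of MEM at 90% confluence were the lowest and those of 0.1% FBS the highest, and TYRP1 and S100B were above background on no array. Of 12 luminal epithelial markers, 3 to 5 were above background on both arrays of a condition. Their summed signal was 2734 to 2917 at 50% confluence, 5043 to 7588 in 0.1% FBS, 4583 to 5157 in HS, 2851 to 3150 in DMEM, 2850 to 2937 in RPMI-1640 and 3087 to 3458 in MEM at 90% confluence, with PGR, FOXA1 and CDH1 above background on no array. Fibroblast and blood cell markers were above background on both arrays of a condition for at most 2 of 10 and 2 of 8 genes.

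MMP3 and TIMP2 carried most of the change, and MMP2 and MMP9 were never measured above background. Against MEM at 90% confluence, 3 of the 11 probes were called at 50% confluence, 2 higher and 1 lower, beside 19.8% of all probes (9.42% higher and 10.3% lower). In 0.1% FBS 4 were higher and 1 lower, beside 22.3% of all probes (10.9% higher and 11.5% lower). In HS 4 were higher and 0 lower, beside 21.9% of all probes (10.4% higher and 11.5% lower). In DMEM 5 were higher and 0 lower, beside 20.9% (10.0% higher and 10.9% lower). In RPMI-1640 3 were higher and 1 lower, beside 19.2% (9.42% higher and 9.82% lower). The called probes stood for 3 of the 9 genes in each of these comparisons. The share of the 11 probes that was called lay above that of all probes in all 5 comparisons, but the 3 TIMP2 probes count separately in it. By the brightest probe of each gene, 2 of 9 genes were called at 50% confluence, in HS and in RPMI-1640, against 22.5%, 24.7% and 21.8% of all symbols, and 3 of 9 in 0.1% FBS and DMEM, against 25.5% and 23.9%, so that these shares were near those of all symbols. Over the 11 probes, with the 3 TIMP2 probes counted separately, the median absolute log2 difference was 0.23 to 0.34 in the 5 comparisons. Over all probes it was 0.11 to 0.12.

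MMP3 (stromelysin 1), which cuts proteoglycans, fibronectin and laminin and activates other MMP precursors, was higher in every other condition than in MEM at 90% confluence. Its probe (ILMN_1784459) read 9.95 and 9.65 at 50% confluence, 8.76 and 8.47 in 0.1% FBS, 8.99 and 9.13 in HS, 8.35 and 8.35 in DMEM, and 9.55 and 9.76 in RPMI-1640, against 7.42 and 7.40 in MEM at 90% confluence. No array of the other conditions overlapped with those of MEM at 90% confluence, and the signal was above background on all 12 arrays. MMP3 was thus 5.24-fold higher at 50% confluence, a log2 difference of 2.39 (standard error 0.12, limma, adjusted p = 1.15e-09). It was 4.74-fold higher in RPMI-1640 (log2 difference 2.25, adjusted p = 2.28e-09), 3.14-fold higher in HS (1.65, adjusted p = 6.46e-08), 2.31-fold higher in 0.1% FBS (mean 8.61 against 7.41, adjusted p = 1.44e-06) and 1.92-fold higher in DMEM (0.94, adjusted p = 2.44e-05). The plot of MMP signals by condition shows these levels beside those of the other 5 enzymes.

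MMP3 also differed among the 5 conditions that leave out MEM at 90% confluence (limma F test, adjusted p = 2.10e-06, beside 19.9% of all probes called). In the order of its mean level, MEM at 90% confluence (7.41), DMEM (8.35), 0.1% FBS (8.61), HS (9.06), RPMI-1640 (9.65) and 50% confluence (9.80), the neighbors DMEM and 0.1% FBS did not pass the test (adjusted p = 0.221), nor did RPMI-1640 and 50% confluence (adjusted p = 0.820), and the other 3 neighboring pairs did. The step between 0.1% FBS and HS (adjusted p = 0.0257) was lost without the second HS array (0.150) or the second array of 0.1% FBS (0.242). That between HS and RPMI-1640 (0.00579) was lost without the second RPMI-1640 array (0.0706) or the first HS array (0.0509). Against 50% confluence, MMP3 was 2.73-fold lower in DMEM (log2 difference -1.45, adjusted p = 3.83e-06), 2.27-fold lower in 0.1% FBS (-1.19, adjusted p = 1.02e-05) and 1.67-fold lower in HS (-0.74, adjusted p = 0.00109). Between the media DMEM and RPMI-1640, both with 10% FBS at 90% confluence, MMP3 was 2.47-fold lower in DMEM (-1.30, adjusted p = 1.81e-05). RPMI-1640 minus 50% confluence gave -0.15, with a 95% interval of -0.41 to 0.12. Above MEM at 90% confluence, the means of MMP3 were thus lowest in DMEM and 0.1% FBS and highest in RPMI-1640 and at 50% confluence.

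**Figure D1:**
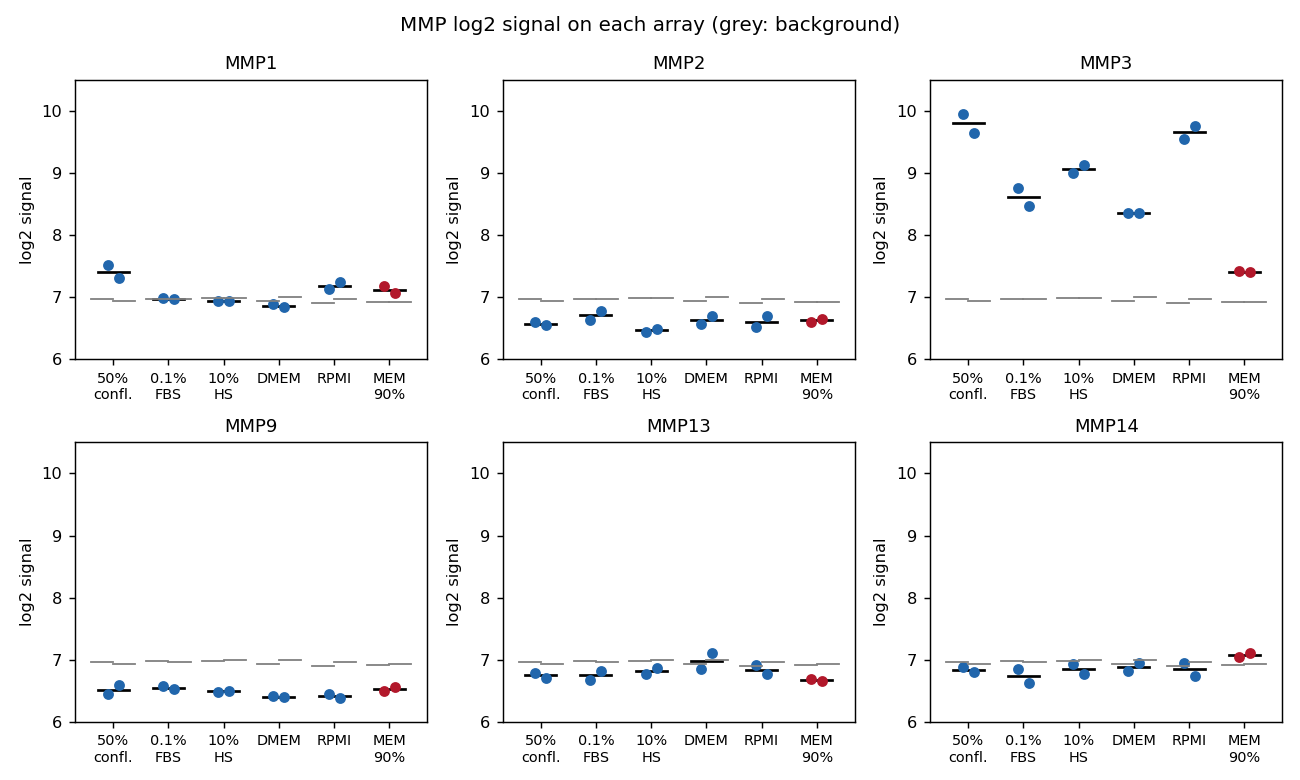
Log2 signal (y axis) of the probes of the 6 MMP genes on each of the 12 arrays, by condition (x axis), with points for the 2 arrays, a black line for their mean, red points for MEM with 10% FBS at 90% confluence and grey lines for the background of each array. MMP3 was above background everywhere and lowest in MEM at 90% confluence (7.42 and 7.40), while MMP2 and MMP9 lay below background on all arrays.

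MMP1 (interstitial collagenase), which opens the triple helix of fibrillar collagens, was dim on these arrays. Its probe (ILMN_1726448) read 7.51 and 7.30 at 50% confluence, 6.98 and 6.96 in 0.1% FBS, 6.93 and 6.93 in HS, 6.88 and 6.83 in DMEM, and 7.12 and 7.25 in RPMI-1640, against 7.17 and 7.06 in MEM at 90% confluence. The signal was above background on both arrays in MEM at both densities and in RPMI-1640, on 1 array in 0.1% FBS and on 0 in HS and DMEM. No difference from MEM at 90% confluence passed the test, and that of 50% confluence came nearest (log2 difference 0.29, standard error 0.10, limma, adjusted p = 0.0501). That value was on the other side of the threshold with 4 of the alternative settings, with an adjusted p of 0.0471 at the lowest, and without the second array of 50% confluence (0.0242). Against 50% confluence, where it was brightest, MMP1 was lower in 0.1% FBS (log2 difference -0.44, adjusted p = 0.00735), HS (-0.48, adjusted p = 0.00506) and DMEM (-0.55, adjusted p = 0.00217). With the dim arrays set at background, this is at least 1.34-fold lower in HS and at least 1.36-fold lower in DMEM. Without the first array of 50% confluence, the adjusted p was 0.114 for 0.1% FBS and 0.0720 for HS. RPMI-1640 minus 50% confluence was -0.22 (adjusted p = 0.530, 95% interval -0.43 to -0.01), and DMEM minus RPMI-1640 was -0.33 (adjusted p = 0.0717).

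MMP13 (collagenase 3), MMP14 (the membrane-type enzyme MT1-MMP) and the gelatinases MMP2 and MMP9, which cut denatured collagen and basement membrane collagen, were near or below background. MMP13 (ILMN_1663873) lay between 6.66 and 7.10 and was above background on 2 of 12 arrays, 1 of DMEM and 1 of RPMI-1640. MMP2 (ILMN_1762106) lay between 6.44 and 6.78 and MMP9 (ILMN_1796316) between 6.38 and 6.59, with 0 of 12 arrays above background for either, also with the 90th percentile of the olfactory receptor probes as the limit. MMP13, MMP2 and MMP9 were called in 0 of the 15 pairs of conditions. For MMP13, DMEM against MEM at 90% confluence came nearest (log2 difference 0.30, adjusted p = 0.0537), with no overlap of the arrays. It passed with trend and robust variance (0.0330), with the compared arrays alone (0.0443) and without the first DMEM array (0.0212).

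MMP14 (ILMN_1774739) was above background on both arrays of MEM at 90% confluence and on 1 array of RPMI-1640. It read 6.85 and 6.62 in 0.1% FBS, against 7.05 and 7.11 in MEM at 90% confluence, and the groups did not overlap. The difference was called (log2 difference -0.34, limma, adjusted p = 0.0323), which with the dim arrays at background is at least 1.08-fold lower in 0.1% FBS. It was the only pair called for MMP14, and the adjusted p was 0.0998 or 0.192 without 1 or the other array of MEM at 90% confluence and 0.283 without the second array of 0.1% FBS.

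MMP1, MMP3 and MMP13 are neighbors on human chromosome 11, where RefSeq (GRCh38.p14) lists 9 MMP genes in the order MMP7, MMP20, MMP27, MMP8, MMP10, MMP1, MMP3, MMP12 and MMP13. Of these, MMP3 alone was above background on all 12 arrays. The genes on either side, MMP1 and MMP12, were above it on 7 and 0 arrays, MMP10 on 0 and MMP8 on 8. The MMP12 signal lay between 6.55 and 6.81 on arrays where MMP3 ranged over 7.40 to 9.95. Among the 5 conditions without MEM at 90% confluence, MMP1 (adjusted p = 0.00319) and MMP3 were the 2 of the 9 genes that passed the F test. This is beside 19.9% of all probes called, a share near that of the 9 genes.

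The promoters of TIMP1 and TIMP3 are shown because the condition means of these 2 inhibitors, each read by 1 probe, ran in different orders. No step between neighbors in either order passed the limma test. Each sequence covers the 250 bases before the RefSeq transcription start (GRCh38.p14, plus strand, 5′ to 3′), TIMP1 at chrX:47582186-47582435 and TIMP3 at chr22:32801455-32801704. Capitals mark every match, on either strand, to the AP-1 motif TGANTCA, the TATA box TATAAA, the PEA3/ETS motif AGGAAG and the Sp1 motif GGGCGG.
TIMP1: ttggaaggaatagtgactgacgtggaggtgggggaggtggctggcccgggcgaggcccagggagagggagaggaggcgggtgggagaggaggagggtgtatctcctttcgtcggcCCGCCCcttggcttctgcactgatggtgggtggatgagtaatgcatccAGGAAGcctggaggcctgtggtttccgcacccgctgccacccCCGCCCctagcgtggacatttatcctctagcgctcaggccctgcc
TIMP3: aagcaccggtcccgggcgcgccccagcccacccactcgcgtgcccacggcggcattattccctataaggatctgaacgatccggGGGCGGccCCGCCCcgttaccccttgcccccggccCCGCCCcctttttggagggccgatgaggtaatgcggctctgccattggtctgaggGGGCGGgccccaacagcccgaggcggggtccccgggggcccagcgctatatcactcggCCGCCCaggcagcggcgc

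The TIMP1 sequence holds 2 Sp1 matches and 1 PEA3/ETS match, and that of TIMP3 holds 5 Sp1 matches. In the same 250-base window, 42.6% of 35116 RefSeq promoters hold an Sp1 match, 28.7% a PEA3/ETS match, 10.7% a TATA box and 6.57% an AP-1 match. Neither window holds the letters of the AP-1 motif or the TATA box as searched. Letters close to a motif were not counted, such as tgagtaa before the AGGAAG of the TIMP1 window. The search therefore does not show that a site is absent. Guanine and cytosine make up 64.8% of the TIMP1 window and 72.4% of that of TIMP3, against a median of 58.0% over all promoters. The motifs did not overlap each other in these windows, and a match is a description of letters, not of a bound site. MMP14 was the third of the 9 genes with a RefSeq promoter here, with 1 Sp1 match.

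TIMP1, an inhibitor of most secreted MMPs, was brightest in MEM at 90% confluence and dimmest at 50% confluence. Its probe (ILMN_1711566) read 12.09 and 11.73 at 50% confluence, 12.11 and 12.28 in 0.1% FBS, 12.29 and 12.33 in HS, 12.30 and 12.29 in DMEM, and 12.11 and 11.93 in RPMI-1640, against 12.59 and 12.45 in MEM at 90% confluence. Both arrays of MEM at 90% confluence were above all other arrays, by a small step. TIMP1 was 1.52-fold lower at 50% confluence (log2 difference -0.60, standard error 0.12, limma, adjusted p = 0.00131) and 1.41-fold lower in RPMI-1640 (-0.50, adjusted p = 0.00608). The call in RPMI-1640 was lost without the first array of MEM at 90% confluence (adjusted p = 0.0840) or without the second array of RPMI-1640 (0.0829). In 0.1% FBS, HS and DMEM the log2 differences were -0.32, -0.21 and -0.22 and did not pass (adjusted p = 0.0698, 0.296 and 0.250).

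Without MEM at 90% confluence, TIMP1 varied less. Its means there lay between 11.91 and 12.31, and the F test over those 5 conditions did not pass (adjusted p = 0.0751). Against 50% confluence, HS was higher by 0.40 (adjusted p = 0.0485), a call that was lost with trend and robust variance, with the compared arrays alone, without MEM at 90% confluence in the fit and without 3 of the 4 arrays compared (adjusted p = 0.0697 to 0.402), as well as with the methods' t-test (0.569) and a 2-fold limit. The order of the 6 means ran from 50% confluence, RPMI-1640, 0.1% FBS, DMEM and HS up to MEM at 90% confluence. No difference between neighbors in this order passed the limma test. The lowest 2 conditions for TIMP1 were the highest 2 for MMP3.

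TIMP2, which inhibits MMPs and helps to activate MMP2, was higher in 0.1% FBS and in DMEM than in MEM at 90% confluence on each of its 3 probes. The largest change was that of probe ILMN_1664583, called probe c here. It read 7.73 and 7.62 at 50% confluence, 10.28 and 10.36 in 0.1% FBS, 8.70 and 8.87 in HS, 9.66 and 9.77 in DMEM, and 8.30 and 8.10 in RPMI-1640, against 7.52 and 7.61 in MEM at 90% confluence. This was 6.74-fold higher in 0.1% FBS (log2 difference 2.75, standard error 0.10, limma, adjusted p = 2.36e-11), 4.42-fold higher in DMEM (2.14, adjusted p = 4.78e-10), 2.32-fold higher in HS (1.21, adjusted p = 2.59e-07) and 1.55-fold higher in RPMI-1640 (0.63, adjusted p = 2.36e-04). At 50% confluence the difference was 0.11 (adjusted p = 0.606, 95% interval -0.11 to 0.33). The 2 MEM conditions with 10% FBS were thus the lowest for this probe, and the difference between them did not pass the test.

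The differences of TIMP2 probe c from 50% confluence leave out the arrays of MEM at 90% confluence. Against 50% confluence, TIMP2 probe c was 6.25-fold higher in 0.1% FBS (log2 difference 2.64, adjusted p = 5.28e-10), 4.10-fold higher in DMEM (2.04, adjusted p = 4.21e-08) and 2.15-fold higher in HS (1.10, adjusted p = 1.30e-05). RPMI-1640 was higher by 0.52, which did not pass (adjusted p = 0.0501). DMEM was 2.85-fold higher than RPMI-1640 (1.51, adjusted p = 9.50e-07). From RPMI-1640 (8.20) over HS (8.78) and DMEM (9.71) to 0.1% FBS (10.32), each step between neighbors passed the test. The 0.1% FBS arrays, where this probe was highest, also had the highest summed signals of the melanocyte and neural crest markers and of the luminal markers, and the part of these in the TIMP2 result was not tested.

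The brightest TIMP2 probe, ILMN_1721876 (probe a), moved by less, in the same order of conditions but for the lowest pair, MEM at the 2 densities. It read 11.01 and 11.11 at 50% confluence, 11.97 and 12.16 in 0.1% FBS, 11.73 and 11.45 in HS, 11.99 and 11.92 in DMEM, and 11.53 and 11.44 in RPMI-1640, against 11.43 and 11.30 in MEM at 90% confluence. It was 1.63-fold higher in 0.1% FBS (log2 difference 0.70, adjusted p = 1.24e-04) and 1.51-fold higher in DMEM (0.59, adjusted p = 6.84e-04), and the other 3 conditions did not pass (adjusted p = 0.0696 to 0.598). Against 50% confluence, where it was lowest, it was 2.01-fold higher in 0.1% FBS (1.00, adjusted p = 1.73e-05), 1.86-fold higher in DMEM (0.90, adjusted p = 9.70e-05) and 1.44-fold higher in HS (0.53, adjusted p = 0.00521). The HS call was lost without the first HS array (adjusted p = 0.0726) or the first array at 50% confluence (0.0564). DMEM was 1.39-fold higher than RPMI-1640 (0.47, adjusted p = 0.0189), a call that was lost without any 1 of the 4 arrays (adjusted p = 0.0669 to 0.130).

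The third TIMP2 probe, ILMN_1749078 (probe b), had another order. It read 8.70 and 8.54 at 50% confluence, 8.70 and 8.56 in 0.1% FBS, 9.28 and 8.80 in HS, 9.45 and 9.33 in DMEM, and 9.05 and 9.02 in RPMI-1640, against 7.97 and 7.79 in MEM at 90% confluence. All 5 conditions were higher than MEM at 90% confluence, by 2.85-fold in DMEM, 2.23-fold in HS, 2.23-fold in RPMI-1640, 1.68-fold in 0.1% FBS and 1.67-fold at 50% confluence (limma, adjusted p = 4.36e-07 to 6.12e-04). In 0.1% FBS this probe differed from 50% confluence by 0.01 (95% interval -0.28 to 0.29), where probes a and c differed by 1.00 and 2.64. Against 50% confluence DMEM passed (log2 difference 0.77, adjusted p = 0.00166). HS did not (0.42, adjusted p = 0.0632), but it passed with the background filter (0.0465) and without the second HS array (0.00490). Within an array, the signal of probe a minus that of probe c was 1.69 to 1.80 in 0.1% FBS and 3.68 to 3.90 in MEM at 90% confluence, which shows unequal change of the probes of 1 gene. Over the 12 arrays, which share 6 conditions, probes a and c had a Pearson r of 0.92 (Spearman rho 0.89), and probe b had r of 0.43 with probe a and 0.47 with probe c (rho 0.52 with each). The probes could not be assigned to transcripts from the files used here.

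**Figure D2:**
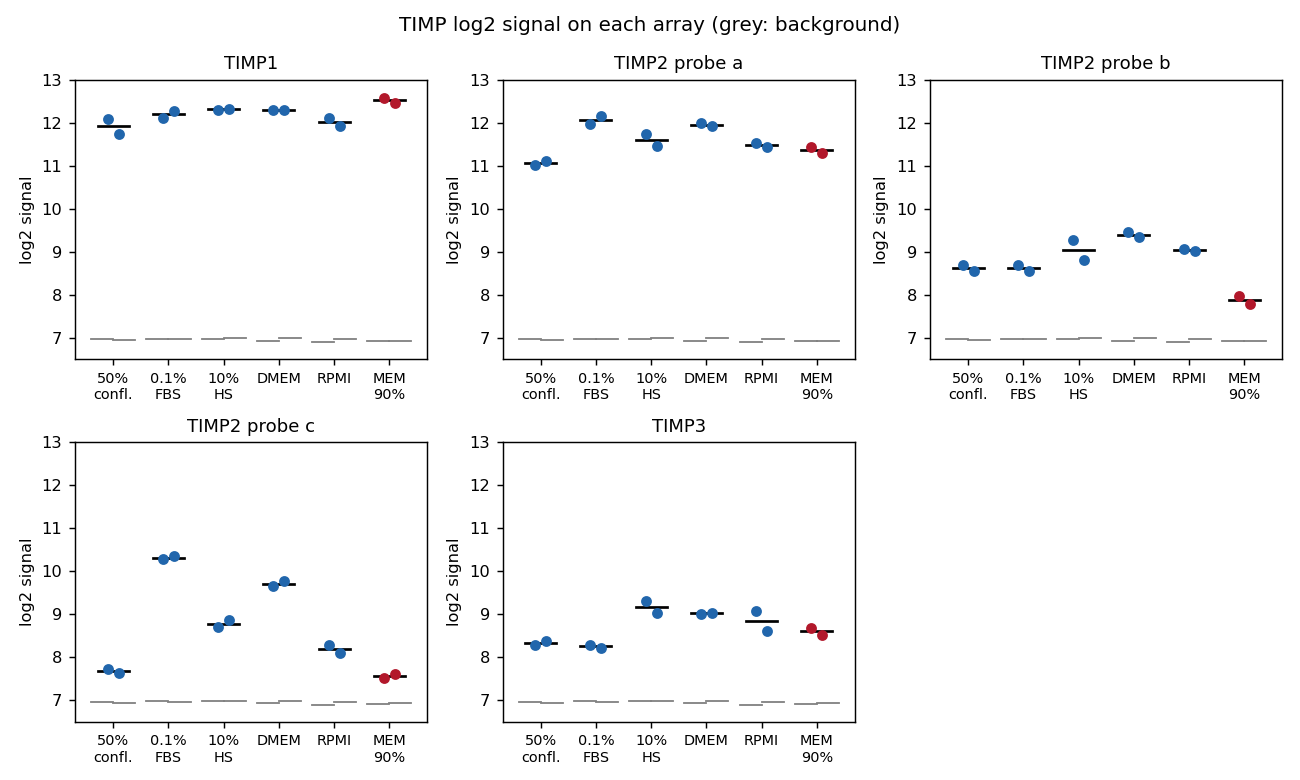
Log2 signal (y axis) of the TIMP1 probe, the 3 TIMP2 probes (a, ILMN_1721876; b, ILMN_1749078; c, ILMN_1664583) and the TIMP3 probe on each of the 12 arrays, by condition (x axis), with points for the 2 arrays, a black line for their mean, red points for MEM at 90% confluence and grey lines for background. TIMP2 probe c was highest in 0.1% FBS (10.28 and 10.36) and TIMP3 in HS (9.32 and 9.03), and all 5 probes were above background on every array.

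TIMP3, the inhibitor that stays bound to the extracellular matrix and also blocks sheddases such as ADAM17, was highest in HS and lowest in 0.1% FBS. Its probe (ILMN_1701461) read 8.29 and 8.37 at 50% confluence, 8.29 and 8.23 in 0.1% FBS, 9.32 and 9.03 in HS, 9.01 and 9.03 in DMEM, and 9.07 and 8.61 in RPMI-1640, against 8.69 and 8.52 in MEM at 90% confluence. The arrays of HS and DMEM lay above those of MEM at 90% confluence, those of RPMI-1640 overlapped with them, and those of 0.1% FBS and 50% confluence lay below. TIMP3 was 1.49-fold higher in HS (log2 difference 0.57, standard error 0.13, limma, adjusted p = 0.00473) and 1.34-fold higher in DMEM (0.42, adjusted p = 0.0359). The HS call was lost without the second array of MEM at 90% confluence (adjusted p = 0.0698) or the first HS array (0.0715), and the DMEM call without any 1 of the 4 arrays (0.0645 to 0.271) and with trend and robust variance (0.0565). In 0.1% FBS the log2 difference was -0.35 (adjusted p = 0.0853), at 50% confluence -0.27 (0.216) and in RPMI-1640 0.24 (0.308).

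The 5 conditions without MEM at 90% confluence differed in TIMP3 (F test, adjusted p = 2.57e-04). Against 50% confluence it was 1.79-fold higher in HS (log2 difference 0.84, adjusted p = 8.15e-04) and 1.61-fold higher in DMEM (0.69, adjusted p = 0.00387), while 0.1% FBS differed by -0.07 (95% interval -0.36 to 0.21). RPMI-1640 was higher by 0.51 and did not pass (adjusted p = 0.176), and its 2 arrays lay 0.45 apart. No difference between neighbors in the order of the 6 means passed the limma test (adjusted p = 0.216 to 0.861). TIMP3 and TIMP2 probe c were thus both higher in DMEM and HS than at 50% confluence, and in 0.1% FBS TIMP2 probe c was at its highest and TIMP3 at its lowest.

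**Figure D3:**
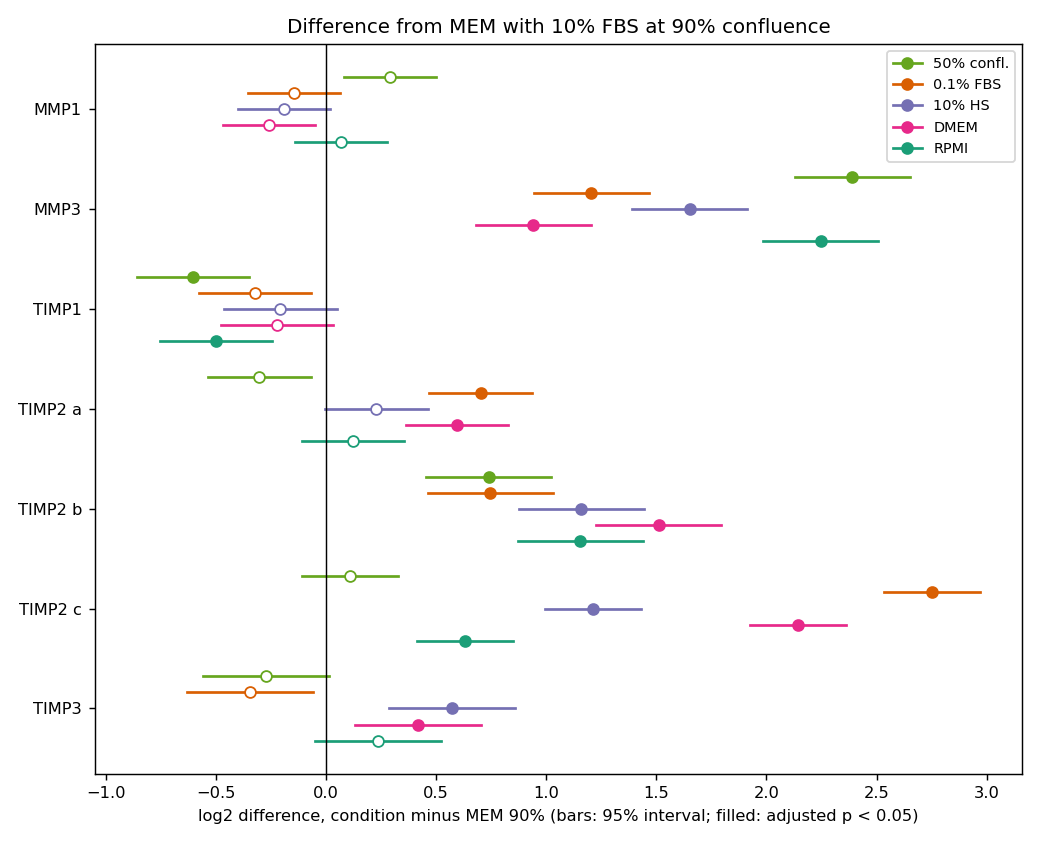
Log2 difference of each condition from MEM with 10% FBS at 90% confluence (x axis) for the 7 probes of MMP1, MMP3, TIMP1, TIMP2 (a, b and c as above) and TIMP3 (y axis), with 95% intervals from limma and filled points for an adjusted p under 0.05. MMP3 was higher in all 5 conditions, from 0.94 in DMEM to 2.39 at 50% confluence, and all 5 share the same 2 arrays of MEM at 90% confluence.

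In 0.1% FBS, HS and DMEM against 50% confluence, every called MMP probe was lower and every called TIMP probe was higher. This holds against that reference, where MMP1 and MMP3 had their highest means and TIMP1 and TIMP2 probe a their lowest. In 0.1% FBS, 2 of the 11 probes were higher (TIMP2 a and c) and 2 lower (MMP1 and MMP3), beside 10.8% of all probes called (5.43% higher and 5.39% lower). In HS 4 were higher, TIMP1, TIMP2 a and c and TIMP3, and 2 lower, MMP1 and MMP3, beside 9.48% of all probes (4.55% higher and 4.93% lower). In DMEM 4 were higher, the 3 TIMP2 probes and TIMP3, and the same 2 were lower, beside 8.35% of all probes (4.09% higher and 4.26% lower). In RPMI-1640 0 of the 11 were called by limma, beside 0.220% of all probes (0.121% higher and 0.0995% lower, 104 probes, and 2 to 164 probes with 1 of the 4 arrays left out), with 5 at an unadjusted p under 0.05 (3 by the methods' t-test). DMEM against RPMI-1640 had 2 probes higher, TIMP2 a and c, and 1 lower, MMP3, beside 5.33% of all probes (2.35% higher and 2.98% lower). These 4 comparisons with 50% confluence share its 2 arrays.

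**Figure D4:**
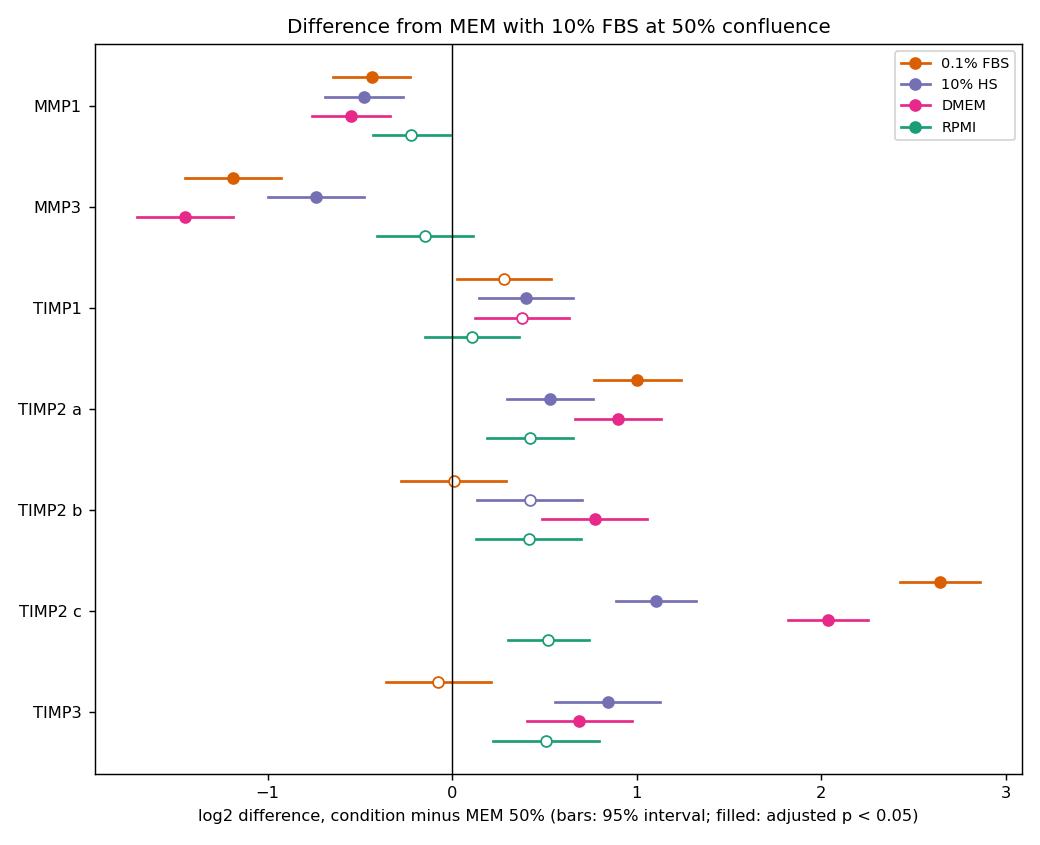
Log2 difference of 4 conditions from MEM with 10% FBS at 50% confluence (x axis) for the same 7 probes (y axis), with 95% intervals from limma and filled points for an adjusted p under 0.05. MMP1 and MMP3 were lower and TIMP2 probes a and c higher in 0.1% FBS, HS and DMEM, and RPMI-1640 had 0 called probes.

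The rest of the family was dim. Of the 18 other MMP genes and TIMP4, 16 of the 19 were above background on at least 1 array and 0 on all 12, and no other MMP, by its brightest probe, read above 7.28 on any array. TIMP4, an inhibitor with narrow tissue expression, was above background on the arrays of MEM at 90% confluence alone, at 8.06 and 8.08 there and at 6.37 to 6.65 on the other 10 arrays. It was at least 2.13-fold lower in HS and at least 2.21-fold lower in RPMI-1640, with the other 3 conditions between (limma, adjusted p = 1.83e-08 to 3.84e-08). MMP8 (neutrophil collagenase) went the other way, at 6.44 and 6.30 in MEM at 90% confluence and 6.85 to 7.25 elsewhere, and was called higher in all 5 conditions (adjusted p = 1.34e-04 to 0.00137), at least 1.02-fold to at least 1.15-fold. MMP16, a membrane-type enzyme, was called higher in 0.1% FBS, HS and RPMI-1640, by at least 1.24-fold, 1.09-fold and 1.07-fold. Against MEM at 90% confluence, 2 or 3 of the 19 genes were called in each condition, beside 21.8% to 25.5% of all symbols. In the 5 comparisons without MEM at 90% confluence, 0 of these 19 genes were called by limma, with 1 or 2 at an unadjusted p under 0.05 in each (0 to 2 by the methods' t-test). The shares of all symbols called there were 0.271% to 12.6%. With 19 dim genes, 0 calls do not set this list apart from all symbols.

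The shares of all symbols given above, 21.8% to 25.5% called against MEM at 90% confluence, are also those beside the counts of the related gene lists, each gene read by its brightest probe. These shares include dim symbols. With the background filter, 9270 to 10647 of 20837 probes were called in these comparisons. That is the nearer measure for the activators and transcription factors below, of which 21 or 22 of 26 and all 20 were above background in each comparison. Of 20 other metzincins (ADAM, ADAMTS and tolloid proteases), 5 were higher and 3 lower at 50% confluence than in MEM at 90% confluence, 5 and 5 in 0.1% FBS, 4 and 4 in HS, 3 and 5 in DMEM and 4 and 5 in RPMI-1640. ADAM10 and ADAM17, sheddases of membrane proteins, were at 8.70 to 9.86 and 8.72 to 9.65 on the other 10 arrays. In MEM at 90% confluence they were at 7.99 and 7.94 (ADAM10) and 7.85 and 7.77 (ADAM17), and neither overlapped. ADAM8 was above background in MEM at 90% confluence alone, at 7.62 and 7.69. ADAM9 was lower in DMEM than in RPMI-1640 (log2 difference -1.84, adjusted p = 9.12e-06), the same direction as MMP3.

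Beside the same 21.8% to 25.5% of all symbols, of 26 activators, docking proteins and inhibitors of MMPs, 6 were higher and 9 lower at 50% confluence than in MEM at 90% confluence, 6 and 11 in 0.1% FBS, 6 and 10 in HS, 6 and 10 in DMEM and 5 and 9 in RPMI-1640. PLAU (urokinase), which makes the plasmin that activates MMP precursors, was at 6.85 to 7.12 on the other 10 arrays, against 10.63 and 10.49 in MEM at 90% confluence, and was lower in all 5 comparisons, with log2 differences of -3.54 to -3.62. Its receptor PLAUR was at 7.22 to 9.0 on the other 10 arrays, against 10.45 and 10.49 in MEM at 90% confluence. SERPINE2, a serine protease inhibitor, was at 13.75 to 14.42 on the other 10 arrays, against 11.89 and 11.74 in MEM at 90% confluence. MMP3 was therefore low on the same 2 arrays where PLAU and PLAUR were high. In 0.1% FBS, 5 of these 26 genes were higher and 5 lower than at 50% confluence, beside 12.6% of all symbols called. In HS 2 were higher and 2 lower, beside 3301 of 31334 symbols. In DMEM 4 were higher and 4 lower, beside 9.26%, and in RPMI-1640 0 were called, beside 0.271%. Against 50% confluence, THBS1, a matrix protein that binds MMP2 and MMP9, was lower in 0.1% FBS (log2 difference -3.12, adjusted p = 3.41e-09) and in DMEM (-1.17, adjusted p = 8.21e-05). PLAUR was lower in 0.1% FBS (-1.58), DMEM (-0.98) and HS (-0.61). LGALS3BP was higher in 0.1% FBS (0.95), ITGAV in DMEM (0.60) and HS (0.58), and SPOCK1 in HS (0.48).

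Beside the same shares of all symbols, of 20 transcription factors known to act on MMP promoters, 2 were higher and 8 lower at 50% confluence than in MEM at 90% confluence, 8 and 8 in 0.1% FBS, 3 and 10 in HS, 4 and 7 in DMEM and 1 and 7 in RPMI-1640. FOSL1, a subunit of AP-1, was at 7.54 to 9.60 on the other 10 arrays, against 11.07 and 10.79 in MEM at 90% confluence. Among the 5 other conditions it was lower in DMEM than in RPMI-1640 (log2 difference -0.82, adjusted p = 0.00575). Against 50% confluence it was lower in 0.1% FBS (-1.14, adjusted p = 1.39e-04) and DMEM (-0.59, adjusted p = 0.0284) and higher in HS (0.59, adjusted p = 0.0268). Other AP-1 subunits did not all move with FOSL1. JUND was higher in 0.1% FBS than at 50% confluence (1.11, limma, adjusted p = 2.23e-04). FOSB was higher in DMEM than in RPMI-1640 (0.45, limma, adjusted p = 0.0484). JUN, like FOSL1, was lower at 50% confluence (-0.99) and in RPMI-1640 (-1.35) than in MEM at 90% confluence. ETV5, a member of the ETS family, was higher than at 50% confluence in 0.1% FBS, HS, DMEM and RPMI-1640, by 1.03, 1.15, 0.95 and 0.67 on the log2 scale (adjusted p = 1.53e-05 to 0.0229). CEBPB was higher in 0.1% FBS, HS and DMEM by 1.30, 1.34 and 0.56.

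Over the 10 arrays other than MEM at 90% confluence, the genes whose pattern was most like that of MMP3 were PVRL3, a cell adhesion molecule (Pearson r 0.96, Spearman rho 0.95), the mitochondrial phosphatase PTPMT1 (r 0.95, rho 0.98) and the smooth muscle actin ACTG2 (r 0.95, rho 0.89). They came out of 1306 genes above background on at least 2 of these arrays, with condition means that ranged over at least 1 on the log2 scale. In MEM at 90% confluence, where MMP3 was at its lowest, PTPMT1 (10.48) and ACTG2 (10.39) were above their highest means in the other conditions (9.99 and 7.81), and PVRL3 (8.82) was near its lowest (8.70). For TIMP2, by its brightest probe, the genes most like it were TBC1D16 (r 0.98, rho 0.95), the sterol synthesis enzyme FDFT1 (r 0.97, rho 0.92) and GNPTAB, which marks enzymes for lysosomes (r 0.97, rho 0.98). All 3 were lower in MEM at 90% confluence (9.20, 9.79 and 8.05) than in any of the 5 other conditions (lowest means 10.80, 11.15 and 8.15). The TIMP2 probe itself had its lowest mean at 50% confluence (11.06), below that in MEM at 90% confluence (11.36). These correlations are over 10 arrays from 5 conditions, 2 arrays each, and are a description.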

How the data were processed

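The authors hybridized labeled cRNA from each culture to Illumina HumanHT-12 v4.0 BeadChips and, per the methods, normalized by quantiles with limma. The deposited log2 values of 47231 probes on 12 arrays were used as they stand. The authors also deposited linear signal intensities, which equal them within 0.01 on the log2 scale for all but 8 probes, none of the 9 genes. Detection p-values were not used here. Slide and scan batches are not given in the sources used here.

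Probes were tested with limma 3.58.1 in R 4.3.3, 1 mean per condition, 6 residual and 8.96 prior degrees of freedom, and figures drawn with matplotlib 3.10.9. The test was checked on simulated data. A bound ("at least") sets arrays below background at background. The genes and lists were chosen with earlier results of these data known. All probes of the 9 genes are named, as are, of each list, up to 4 called genes with the largest change in a comparison, and the 3 genes most like a gene whose brightest probe varies by at least 1. CD44, whose 2 deposited tables differ, and 1 other gene that the rule names are not reported here. Alternatives covered the table, scaling, variance model, arrays in the fit, replicate block, filter, probes per gene, threshold, the methods' t-test and leaving out each array. The number of arrays limits the precision.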

Additional observations from a re-analysis of the deposited data

How the results depend on the processing

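The counts of called probes were within 1.5 times of those given with the linear table, the series values, median or 75th-percentile scaling, trend and robust variance, the compared arrays alone, the background filter and, chosen after seeing the data, a fit without MEM at 90% confluence. With 1 probe per gene, 0.1% FBS, HS, DMEM and RPMI-1640 against MEM at 90% confluence had 3, 2, 3 and 2 of 9 probes called. With a further limit of 2-fold, 50% confluence, 0.1% FBS, DMEM and RPMI-1640 against MEM at 90% confluence had 1, 2, 2 and 2, and HS and DMEM against 50% confluence 1 and 2. The methods' t-test at P under 0.001 called 1 probe in 0.1% FBS and 1 in DMEM against MEM at 90% confluence, 1 in 0.1% FBS against 50% confluence, and 0 in 50% confluence, HS and RPMI-1640 against MEM at 90% confluence, in HS and DMEM against 50% confluence and in DMEM against RPMI-1640. After Benjamini-Hochberg it called 1 in DMEM against MEM at 90% confluence and 0 in the other 8 comparisons that had calls.

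Leaving out 1 array gave 3 to 4 called probes at 50% confluence, 4 to 5 in 0.1% FBS, 3 to 5 in HS, 4 to 5 in DMEM and 3 to 4 in RPMI-1640 against MEM at 90% confluence. Against 50% confluence it gave 4 to 4 in 0.1% FBS, 4 to 6 in HS, 6 to 7 in DMEM and 0 to 2 in RPMI-1640, where 2 probes, TIMP2 c and TIMP3, were called without the second RPMI-1640 array, and it gave 2 to 2 in DMEM against RPMI-1640 and 6 to 7 of 11 in the F test. The MMP3 and TIMP2 probe c differences that were called in these 10 comparisons kept their call and sign. Among neighbors in the order of the means, TIMP2 probe c kept its 3 called steps, and MMP3 lost that between 0.1% FBS and HS without either of 2 arrays and that between HS and RPMI-1640 likewise. Of 1183, 19 and 125 single values under alternatives, the first kept their side of the threshold, the second came to pass it and the third lost it, and 0 called values changed sign. The replicate numbers are shared across conditions but did not pair the arrays, since deviations of same-numbered arrays correlated at -0.06 to 0.13 over 15 pairs of conditions. With the replicate block, TIMP2 probe b in HS against 50% confluence came to pass (adjusted p = 0.0211) and no other call changed. Values near background, of MMP1, MMP13 and MMP14, are limited by signal over background.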
